A study of Mus musculus with 8 samples.

Results

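Cathepsins are proteases of lysosomes and secretory granules, and 10 of them make up the family described here: Ctsb, Ctsc, Ctsd, Ctse, Ctsg, Ctsh, Ctsk, Ctsl, Ctss and Ctsz. They were taken by gene symbol from a table of 49315 Ensembl gene identifiers, and all 10 were found once. RNA of whole esophagus was sequenced from 8 male mice of the C57BL/6J strain at 8 weeks of age, 1 library per mouse. The EoE33 group held 4 mice with a transgene that overexpresses the alarmin cytokine IL-33 in the esophagus, and the control group held 4 wild type littermates. The promoter of the transgene is not given in the sources used here. The series concerns eosinophilic esophagitis, an allergic inflammation of the esophagus, and the comparison asks which transcripts differ when IL-33 is overexpressed.

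Most cathepsins are made as inactive precursors, tagged with mannose-6-phosphate, carried to the lysosome and activated there at low pH. Cathepsins B, C, H, K, L, S and Z use a catalytic cysteine, cathepsins D and E a pair of aspartates, and cathepsin G a serine. The cysteine enzymes B, K, L and S cut inside protein chains, while C, H and Z trim amino acids from chain ends, as B also can. Cathepsin S trims the invariant chain of MHC class II in antigen-presenting cells, cathepsin K degrades collagen, cathepsin C activates granule proteases of leukocytes, and cathepsin D is a general lysosomal protease that is also active in differentiating keratinocytes.

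Of the 10 cathepsins, all with enough counts to test, 8 rose in EoE33, none fell and 2 did not pass the test. Ctse and Ctsg had enough counts to test only through their EoE33 libraries, so they could not have been called lower. Both are among the 8 and among the 6 rises of at least 2-fold given below. Across all 16760 genes tested, 63.4% passed, made up of 31.3% that rose and 32.1% that fell (edgeR quasi-likelihood test, Benjamini-Hochberg adjusted p under 0.05). Levels are given as CPM, counts per 1e6 of each library's size after TMM scaling. The rises ran from 1.40-fold for Ctsb to 17.2-fold for Ctsg, and 6 of them were at least 2-fold, a size that 12.3% of tested genes reached upward. The family's median log2 fold change was 1.33, against −0.01 over all tested genes. In the 8 genes that rose, every EoE33 library lay above every wild type library, which held for 29.6% of all tested genes. No cathepsin had all EoE33 libraries below all wild type libraries, as 29.9% of tested genes did. Where groups of 4 and 4 do not overlap, a two-sided exact permutation test gives p = 0.0286, the smallest that the 70 orderings allow. In bulk tissue, more cells of a type and more RNA per cell cannot be told apart.

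**Figure D1:**
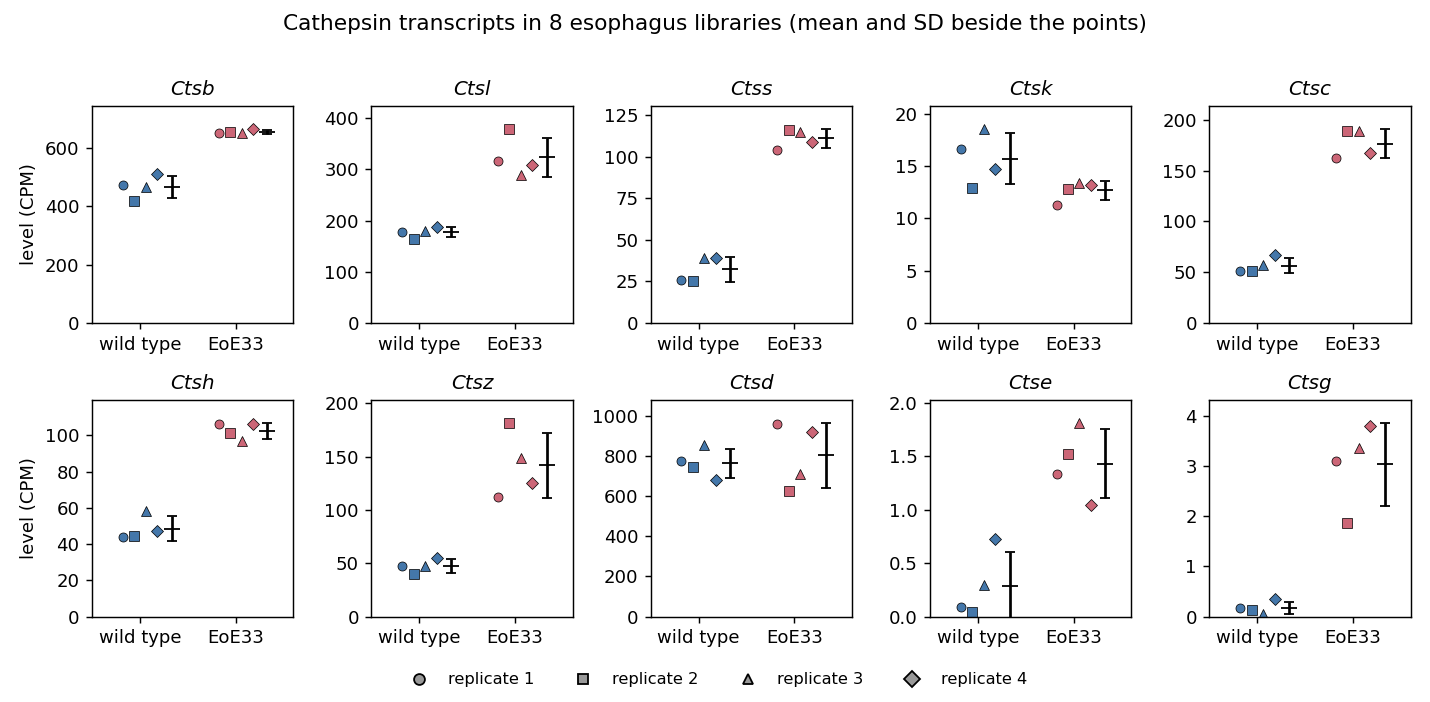
Levels of the 10 cathepsins in CPM (vertical axes from 0) in the 4 wild type (blue) and 4 EoE33 (red) libraries, with marker shape for the replicate number and the mean with its SD beside the points. The groups are separate in every panel except those of Ctsk and Ctsd.

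Ctss, which encodes cathepsin S, lies on chromosome 3 from 95526786 to 95556403 in GRCm38 (ENSMUSG00000038642). Its level was 26.1, 25.2, 38.8 and 38.8 CPM in wild type replicates 1 to 4, and 104, 116, 115 and 109 CPM in EoE33 replicates 1 to 4. Wild type replicates 3 and 4 stood above the other two, and all EoE33 libraries were close together and far above them. The mean rose from 32.2 ± 7.602 to 111 ± 5.51 CPM (± SD over 4 mice), a 3.44-fold change with a log2 fold change of 1.78 and an SE of 0.15 (edgeR adjusted p = 1.35e-05).

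Ctsk, the collagen-degrading cathepsin K gene, is the neighbour of Ctss. It lies from 95499256 to 95509362 on the same strand of chromosome 3 (ENSMUSG00000028111), and Ctss starts 17.4 kb beyond its end. Ctsk was at 16.65, 12.85, 18.5 and 14.7 CPM in wild type replicates 1 to 4 and at 11.3, 12.8, 13.4 and 13.2 CPM in the EoE33 replicates. The groups overlapped through wild type replicate 2. The wild type mean was 15.7 ± 2.44 CPM and the EoE33 mean 12.7 ± 0.942 CPM (± SD over 4 mice). The log2 fold change of −0.31 (95% interval −0.58 to −0.03) narrowly missed the threshold (edgeR adjusted p = 0.0507), and it passed without wild type replicate 2, at −0.38 (edgeR adjusted p = 0.0188). Leaving out wild type replicate 3 instead gave −0.22 (edgeR adjusted p = 0.129).

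The counts of these neighbours moved apart. For each Ctsk count there were 1.57 to 2.64 Ctss counts in the wild type libraries and 8.26 to 9.20 in the EoE33 libraries, a ratio that no scaling of whole libraries changes. This pair was chosen after its values were seen, and the ratio was not tested. The 250 bases before the RefSeq start of each gene (GRCm38.p6, plus strand) are shown because these genes share a locus and only Ctss passed the test. Capitals mark a match to the interferon response element core, GAAA and GAAA with 2 bases between them.
Ctsk, chr3:95498960-95499209: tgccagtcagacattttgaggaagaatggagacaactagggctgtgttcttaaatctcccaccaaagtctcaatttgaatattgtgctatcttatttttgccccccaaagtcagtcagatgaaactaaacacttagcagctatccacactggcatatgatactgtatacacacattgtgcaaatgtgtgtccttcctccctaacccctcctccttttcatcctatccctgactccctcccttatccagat
Ctss, chr3:95526536-95526785: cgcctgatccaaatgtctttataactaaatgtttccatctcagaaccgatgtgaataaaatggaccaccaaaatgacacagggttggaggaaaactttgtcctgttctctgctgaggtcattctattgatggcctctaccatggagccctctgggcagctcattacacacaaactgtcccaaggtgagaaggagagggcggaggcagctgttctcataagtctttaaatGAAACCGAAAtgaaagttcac
The Ctss window holds 1 such match, 21 to 12 bases before the start, and the Ctsk window holds none. On either strand, 2.98% of 32851 upstream windows of the same length hold the motif. Neither window holds CACGTG, the E-box found in many lysosomal genes (6.02% of windows), TTC and GAA with 4 bases between them, a palindrome of the kind bound by STAT6 (5.85%), or GAGGAAGT, a site of the kind bound by PU.1 (2.44%). A match describes the letters and does not show binding.

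Ctsl and Ctsb, the other cysteine endopeptidase genes, rose by less than 2-fold from high starting levels. Ctsl, the cathepsin L gene on chromosome 13 from 64359337 to 64370890 (ENSMUSG00000021477), was at 178, 164.5, 179 and 187 CPM in the wild type libraries and at 317, 378, 289 and 309 CPM in the EoE33 libraries. EoE33 replicate 2 was the highest, and the groups were separate. The mean rose 1.83-fold, from 177 ± 9.40 to 323.5 ± 38.4 CPM (± SD over 4 mice). The fitted log2 fold change was 0.87 with an SE of 0.09 (edgeR adjusted p = 3.99e-05).

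Ctsb, which encodes cathepsin B, lies on chromosome 14 from 63122462 to 63145923 (ENSMUSG00000021939). In wild type replicates 1 to 4 it was at 475, 418, 466 and 510.2 CPM. The EoE33 libraries lay at 650.4, 654, 650.5 and 664 CPM, so closely together that their coefficient of variation was 1.007%, beside 0.872% from counting error alone. Its mean rose 1.40-fold, from 467 ± 38.0 to 655 ± 6.59 CPM (± SD over 4 mice). The fitted log2 fold change was 0.49 with an SE of 0.08 (edgeR adjusted p = 0.000421). Ctsb shares 774 exon bases with Fdft1 on the other strand. If strand was not used in counting, reads there cannot be told apart, and Fdft1 itself went from 134 to 142 CPM without passing (edgeR adjusted p = 0.612).

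The 3 cysteine exopeptidase genes, Ctsc, Ctsz and Ctsh, all rose at least 2-fold. Ctsc encodes cathepsin C, the dipeptidyl peptidase that activates granule serine proteases, and lies on chromosome 7 from 88278085 to 88310888 (ENSMUSG00000030560). It was at 50.9, 51.45, 57.05 and 66.6 CPM in wild type replicates 1 to 4 and at 162, 189, 189 and 167 CPM in the EoE33 replicates. The groups were far apart, with EoE33 replicates 2 and 3 the highest. The mean went from 56.5 ± 7.275 to 177 ± 14.1 CPM (± SD over 4 mice), a 3.12-fold rise with the smallest p of the family (log2 fold change 1.64 with an SE of 0.10, edgeR adjusted p = 2.1e-06). Its upstream window holds 1 match to the PU.1-type letters GAGGAAGT, read on the opposite strand and printed in capitals with its surroundings.
Ctsc, chr7:88277923-88277952: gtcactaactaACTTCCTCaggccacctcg

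Ctsz, the carboxypeptidase cathepsin Z gene on chromosome 2 from 174427493 to 174439039 (ENSMUSG00000016256), was at 47.0, 39.9, 47.8 and 54.9 CPM in wild type. The EoE33 libraries spread more widely, at 112, 181.5, 148 and 125 CPM, with replicate 2 highest and replicate 1 lowest. The rise was 2.99-fold, from 47.4 ± 6.135 to 142 ± 30.5 CPM (± SD over 4 mice). The fitted log2 fold change was 1.58 with an SE of 0.16 (edgeR adjusted p = 3.35e-05). Ctsh, which encodes the aminopeptidase cathepsin H, lies on chromosome 9 from 90054152 to 90076089 (ENSMUSG00000032359). Its levels were 43.7, 44.2, 58.5 and 46.97 CPM in wild type mice and 106, 101, 96.95 and 106 CPM in EoE33, an even set of libraries. Ctsh rose 2.12-fold, from 48.3 ± 6.91 to 102.5 ± 4.35 CPM (± SD over 4 mice). The fitted log2 fold change was 1.08 with an SE of 0.10 (edgeR adjusted p = 1.52e-05).

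**Figure D2:**
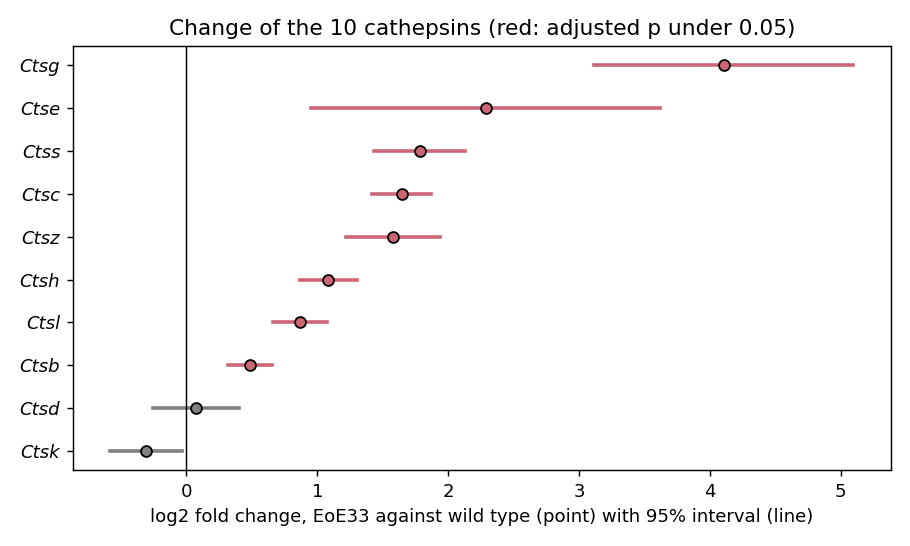
Log2 fold change of each cathepsin, EoE33 against wild type (horizontal axis), as a point with its 95% interval, ordered by size; red marks the 8 that rose. The intervals of Ctsg and Ctse, with the fewest counts, are the widest, and only the interval of Ctsd includes 0.

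The aspartic cathepsins took different courses. Ctsd, the cathepsin D gene on chromosome 7 from 142375911 to 142388038 (ENSMUSG00000007891), had the highest level per kb of the family. It was at 774, 747, 853 and 678 CPM in wild type replicates 1 to 4 and at 958, 625, 709 and 919.5 CPM in EoE33 replicates 1 to 4. EoE33 replicates 1 and 4 were above all wild type libraries, while replicate 2 was below them all. Means were 763 ± 72.3 and 803 ± 161 CPM (± SD over 4 mice), and the log2 fold change was 0.07 (95% interval −0.25 to 0.40, edgeR adjusted p = 0.677). Without EoE33 replicate 1 its sign turned, at −0.021. A p that misses the threshold does not show equal levels.

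The EoE33 libraries low in Ctsd were also low in transcripts of the differentiated squamous layers. The summed level of 7 suprabasal markers, which include the keratins Krt4 and Krt13, was 44610, 22390, 29080 and 43020 CPM in EoE33 replicates 1 to 4, the same order as for Ctsd. In wild type it was 81570, 90500, 103100 and 61620 CPM, where replicate 3 was likewise highest and replicate 4 lowest for both. With 4 libraries per group this is a description, and the part of epithelial differentiation in the Ctsd levels was not tested. Ctsz ran the opposite way among the EoE33 libraries, so that the count ratio of Ctsz to Ctsd spanned 0.117 to 0.291 there, against 0.0534 to 0.0810 in wild type.

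Both E-box matches in the Ctsd upstream window and the match in that of Ctsl are shown because CACGTG is the core of the element read by TFEB and related regulators of lysosomal genes. Capitals mark the motif, and the minus strand is printed. Positions count from the RefSeq start, whereas the gene coordinates given above are from GENCODE. The Ctsd stretch with its motif at 98 to 93 bases and the Ctsl stretch lie inside those GENCODE coordinates.
Ctsd, 245 to 240 bases before the start, chr7:142388048-142388077: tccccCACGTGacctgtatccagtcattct
Ctsd, 98 to 93 bases before the start, chr7:142387908-142387937: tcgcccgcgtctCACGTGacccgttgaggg
Ctsl, 236 to 231 bases before the start, chr13:64370739-64370768: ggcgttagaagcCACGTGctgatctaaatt
Upstream windows were found for 7 of the 10 cathepsins, and 2 of those 7 hold CACGTG. Those of Ctsg and Ctsz hold none of the 4 motifs searched.

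Ctse, which encodes cathepsin E, an aspartic protease of gastric surface cells, B cells and skin, was near the limit of detection in wild type. It lies on chromosome 1 from 131638306 to 131675505 (ENSMUSG00000004552) and had 2, 1, 7 and 17 counts in wild type replicates 1 to 4, beside 28, 26, 42 and 21 in the EoE33 replicates. The levels were 0.0848, 0.0439, 0.296 and 0.727 CPM in wild type mice and 1.335, 1.52, 1.81 and 1.05 CPM in EoE33, separate but close at wild type replicate 4. The rise was 4.88-fold (0.288 ± 0.313 to 1.43 ± 0.320 CPM, ± SD over 4 mice), with a fitted log2 fold change of 2.29 and an SE of 0.59 (edgeR adjusted p = 0.00778). Leaving out wild type replicate 4 gave a log2 fold change of 3.27, and leaving out wild type replicates 1 and 3 together gave 1.86, which did not pass (edgeR adjusted p = 0.0703).

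In wild type, summed B cell, macrophage, dendritic cell and erythroid markers all had the same order of libraries as Ctse. In EoE33 none of these sums did. The wild type order of Ctse rests on 2, 1, 7 and 17 counts in replicates 1 to 4, too few to order replicates 1 and 2. The B cell sum was 1.19, 0.702, 31.0 and 35.8 CPM in wild type replicates 1 to 4 and 14.1, 49.0, 28.3 and 6.88 CPM in EoE33 replicates 1 to 4. None of the 5 tested B cell markers passed, and the part of any of these cells in the Ctse level was not tested. Of 10 gastric mucosa markers, Gkn2 and Gif had 0 counts in every library and 9 had too few counts to test.

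Ctsg, the serine protease cathepsin G of granulocyte and mast cell granules, had the largest fold change of the family. It lies on chromosome 14 from 56099881 to 56102574 (ENSMUSG00000040314) and had 4, 3, 1 and 8 counts in wild type replicates 1 to 4, and 65, 32, 78 and 76 in the EoE33 replicates. In CPM these were 0.1695, 0.132, 0.0423 and 0.342 in wild type and 3.10, 1.87, 3.36 and 3.79 in EoE33, with EoE33 replicate 2 the lowest. The mean rose 17.2-fold, from 0.171 ± 0.126 to 3.03 ± 0.824 CPM (± SD over 4 mice). The fitted log2 fold change was 4.10 with an SE of 0.44 (edgeR adjusted p = 4.54e-05).

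Mast cell markers moved in the same direction as Ctsg, with 6 of 9 higher and 3 not passed. Their summed level ran from 19.8 to 72.4 CPM in wild type mice and from 101 to 175 CPM in EoE33 mice. Of the neutrophil markers 7 of the 8 tested rose, from a sum of 15.8 to 183 CPM in wild type to 1091 to 2644 CPM in EoE33. Across all tested genes 31.3% rose. Like Ctsg, some of these markers had enough counts to test only through their EoE33 libraries, so they could not have been called lower. They include Ms4a2 and Tpsab1 of the mast cell list and Ly6g, Retnlg, Mmp8 and Ngp of the neutrophil list. The 183 CPM belong to wild type replicate 3, where Ltf, the lactoferrin gene, was at 167 CPM against 5.395 to 6.653 CPM in the other wild type libraries. Ltf also made up most of the EoE33 neutrophil sums, at 1748, 2465, 1511 and 1000 CPM in replicates 1 to 4. Mpo and Elane, which with Ctsg mark the primary granules of neutrophil precursors, had 15 and 8 counts over the 4 EoE33 libraries, beside 251 for Ctsg. The parts of mast cells and neutrophils in the Ctsg rise were not tested.

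Per kb of exon, which allows genes to be compared with each other, the family's transcripts shifted away from Ctsd. Ctsb, Ctsd and Ctsl share part of their sequence with other genes, and how such reads were counted is not given. Their levels per kb relative to the other members are uncertain by that much. The summed level of the 10 genes went from 517 ± 34.1 to 744.5 ± 41.6 CPM per kb (± SD over 4 mice), a ratio of 1.44. Of that sum Ctsd held 62.8% ± 3.497 in wild type mice, against 45.6% ± 6.803 in EoE33 mice (± SD over 4 mice), without overlap: its highest EoE33 share was 52.2% and its lowest wild type share 57.6%. The share of the 7 cysteine cathepsins went from 37.2% ± 3.46 to 54.0% ± 6.85 (± SD over 4 mice). Ctsg, the only serine protease, went from 0.0329% to 0.392%.

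Within the cysteine group Ctsz, Ctss, Ctsc, Ctsl and Ctsh had larger shares in every EoE33 library than in any wild type library. Ctsz went from 6.38% ± 0.864 to 13.4% ± 3.53 of the family's per-length sum, Ctss from 4.58% ± 0.972 to 11.02% ± 1.14, and Ctsc from 1.89% ± 0.274 to 4.11% ± 0.554 (± SD over 4 mice). With the length of the longest transcript in place of merged exons, the Ctsc shares were 2.99% and 6.47%. Ctsl went from 5.29% ± 0.362 to 6.72% ± 1.005 and Ctsh from 2.07% ± 0.176 to 3.06% ± 0.0726 (± SD over 4 mice). Ctsb kept close to its share, at 15.0% ± 1.40 and 14.6% ± 0.759, while Ctsk went from 2.00% ± 0.193 to 1.13% ± 0.126 (± SD over 4 mice). These shares are unaffected by how libraries are scaled, and were not tested.

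In order of level per kb, wild type ran from Ctsd through Ctsb, Ctsz, Ctsl, Ctss, Ctsh, Ctsk and Ctsc to Ctsg and Ctse. Wild type shares of Ctsz, Ctsl and Ctss overlapped between neighbours in that order, as did those of Ctsh, Ctsk and Ctsc and those of Ctsg and Ctse. Compared within each library, Ctsz was above Ctsl in every wild type library, and the other overlapping neighbours changed order between libraries. In EoE33 the first 3 places were the same, and Ctss stood above Ctsl and Ctsc above Ctsh and Ctsk. The EoE33 shares of Ctsz and Ctsb overlapped and changed order between libraries, so these neighbours are not ordered beyond their spread. Those of Ctsz and Ctss overlapped as ranges, but Ctsz was above Ctss in every EoE33 library. The 2 were closest in EoE33 replicate 1, at 9.94% for Ctsz and 9.81% for Ctss.

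**Figure D3:**
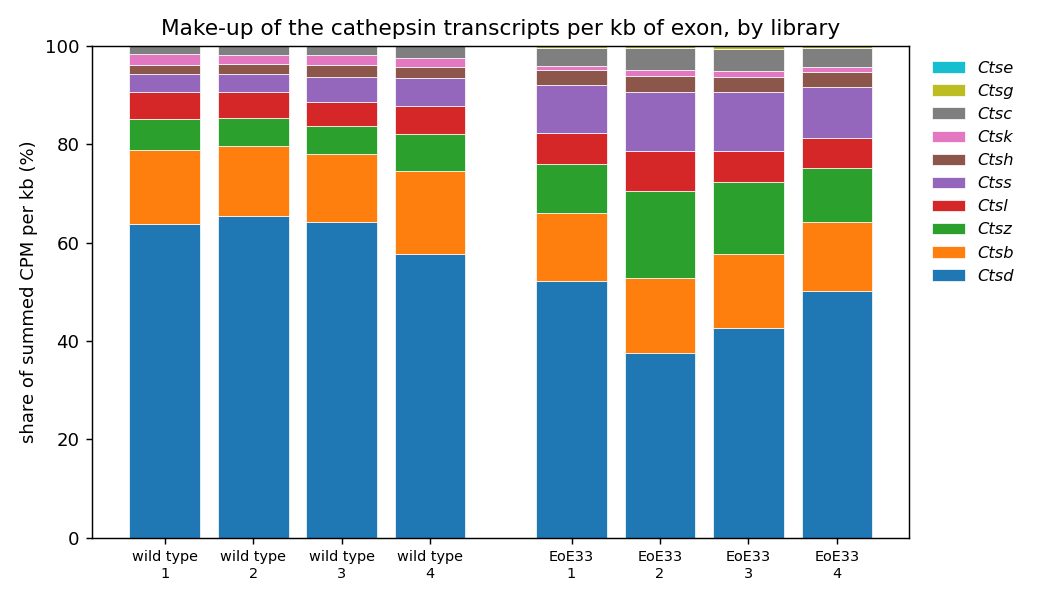
Share of each cathepsin in the family's summed CPM per kb of merged exon (percent, stacked to 100), by library. The Ctsd part is between 57.6% and 65.4% in wild type and between 37.5% and 52.2% in EoE33, and the parts of Ctss, Ctsz and Ctsc are larger in the EoE33 libraries.

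Spread between libraries differed by gene. In wild type, replicate 4 was the highest library for 7 of the 10 cathepsins, and replicate 3 for the other 3, Ctsd, Ctsh and Ctsk. Replicate 4 also had the highest sum of macrophage markers in wild type, at 500.5 CPM, and replicate 2 the lowest, at 318 CPM. This was not particular to macrophages. The same libraries were highest and lowest for mast cell, B cell, dendritic cell, fibroblast, erythroid and thyroid markers. Ctsd and Ctsz varied most among the well-counted genes in EoE33, with coefficients of variation of 20.1% and 21.5% against counting errors of 0.804% and 1.90%.

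The remaining cathepsin genes were divided. Of 13 listed, 4 had enough counts to test, 1 rose, 1 fell and 2 did not pass. Ctsf, a cysteine cathepsin gene, fell from 20.1 to 9.502 CPM (log2 fold change −1.08, edgeR adjusted p = 0.000229), and Ctso rose from 18.2 to 24.9 CPM (0.45, edgeR adjusted p = 0.00915). Ctsa, which encodes the carboxypeptidase protective protein, was at 120 CPM in wild type mice and at 105 CPM in EoE33 mice (−0.19, edgeR adjusted p = 0.0572). The other genes of the list are mostly placental cathepsins, and 6 of them had 0 counts in every library.

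Genes of the lysosome at large were divided, with medians near that of all genes. Of 35 other lysosomal hydrolases and their cofactors 15 rose, 8 fell and 12 did not pass (median log2 fold change 0.05). The carboxypeptidase gene Scpep1 and the palmitoyl thioesterase gene Ppt1 fell, with log2 fold changes of −1.21 and −0.90. Of 18 subunits of the proton pump that acidifies the lysosome 6 rose and 5 fell (median −0.05). Atp6v0d2, a subunit enriched in osteoclasts and macrophages, rose from 0.322 to 4.56 CPM (3.80), and Tcirg1, the a3 subunit gene, and Atp6v0e rose by 1.32 and 0.51 on the log2 scale.

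Sorting and regulation genes were also split, with 4 of 16 higher and 5 lower (median −0.08). Tfeb, the transcription factor gene of lysosome biogenesis, fell from 69.0 to 23.15 CPM (log2 fold change −1.58, edgeR adjusted p = 2.61e-06). M6pr, a receptor for mannose-6-phosphate tagged enzymes, rose from 99.2 to 172 CPM (0.79), and Lamp2, a lysosomal membrane protein gene, rose by 0.42. Genes of cathepsin inhibitors moved in both directions, with 8 of 16 higher, 4 lower and 4 not passed (median 0.19). Cstb, which encodes stefin B, rose from 62.2 to 152 CPM (1.29), and Stfa2 and the serpin gene Serpina3n rose by 3.54 and 2.96 on the log2 scale. Those that fell, named after their values were seen, were Stfa1, Slpi, Cst6 and Serpinb3a, with log2 fold changes of −2.74, −3.03, −1.95 and −3.22.

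**Figure D4:**
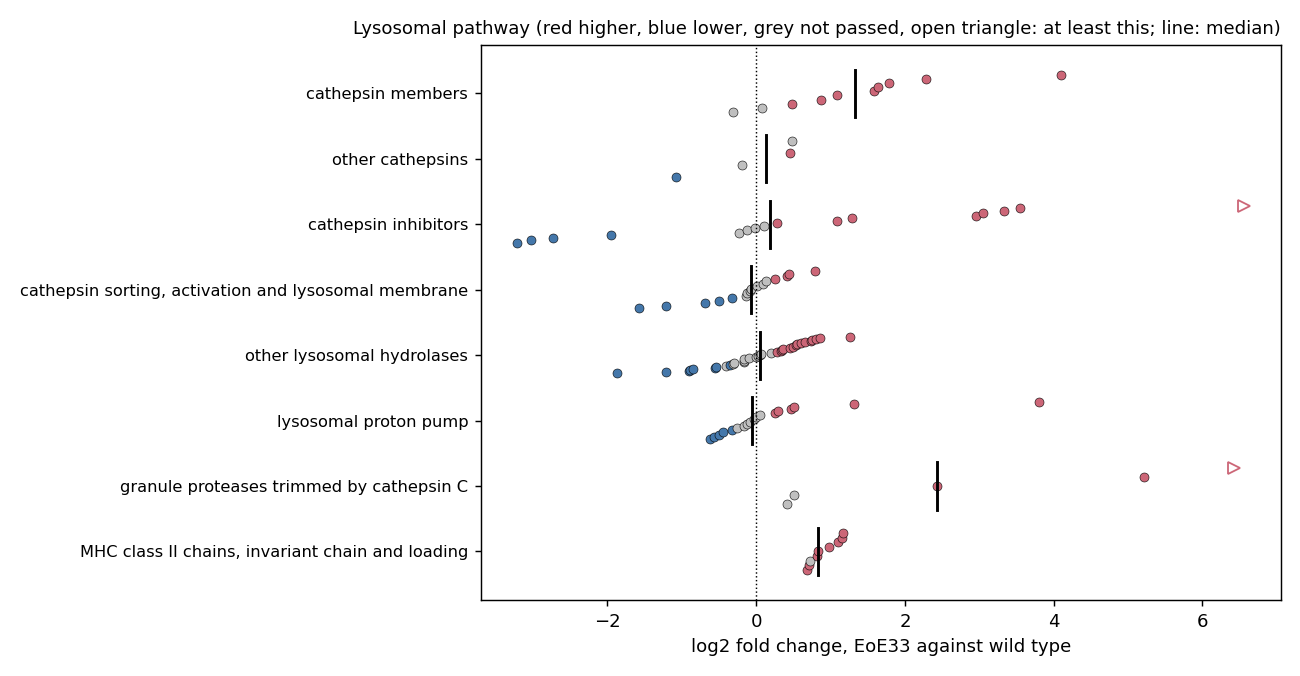
Log2 fold change of each tested gene (points), EoE33 against wild type, by list, with the list's median as a line; an open triangle is a lower bound for a gene with 0 wild type counts. The cathepsins lie mostly to the right of 0, with a median of 1.33, while lysosomal hydrolases, the proton pump and sorting genes spread to either side of 0.

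Most tested genes whose products cathepsins act on or with rose, where 31.3% of all tested genes did. Of the MHC class II genes, invariant chain and loading factors 8 of 9 rose and 1 did not pass (median log2 fold change 0.83). Ifi30, a lysosomal thiol reductase gene of antigen processing, rose from 35.1 to 57.6 CPM, and H2-Ab1 and H2-Aa rose by 1.15 and 1.17 on the log2 scale. Cd74, the invariant chain that cathepsin S trims, was named after its values were seen and rose from 218 to 429 CPM (0.97, edgeR adjusted p = 0.00136), against 1.78 for Ctss. Of the granule proteases trimmed by cathepsin C 3 of 5 tested rose. Among these 3, Gzmb and Mcpt2 had enough counts to test only through their EoE33 libraries, so they could not have been called lower. Gzmb went from 3 counts to 114 over the group, a ratio of 43.65 with an exact 95% interval from 14.6 to 215. Mcpt2 had 0 and 225 counts and was at least 86.2-fold higher, taking 3 counts as the wild type total, and Cma1, the mast cell chymase gene that is also on the mast cell list, rose from 5.66 to 30.6 CPM.

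Other cell type markers shifted between the groups as well. Of 12 macrophage markers 10 rose and 2 did not pass, and their summed level ran from 318 to 500.5 CPM in wild type mice and from 605 to 795 CPM in EoE33 mice. Cd68, a lysosomal membrane protein gene of macrophages, rose by 1.55 on the log2 scale and Csf1r by 0.52, beside 1.78 for Ctss and 1.64 for Ctsc. The largest rise among the 12 macrophage markers was that of Ms4a7, at 2.79, and their median log2 fold change was 0.78. Dendritic cell markers rose in 4 of 8 and fell in 1, Zbtb46, with sums of 16.05 to 32.3 CPM and 35.9 to 42.7 CPM. No macrophage or dendritic cell marker was at 0 in a whole group, and the part of these cells in the rises of Ctss, Ctsc, Ctsh, Ctsz, Ctsl and Ctsb was not tested.

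Fibroblast markers, which include the collagens that cathepsin K degrades, fell in 6 of 7, with a median log2 fold change of −0.82 beside −0.31 for Ctsk. Their summed level ran from 3936 to 4760 CPM in wild type mice and from 2073 to 3022 CPM in EoE33 mice. Dcn, the decorin gene, fell from 793 to 449 CPM. Basal keratinocyte markers rose in 6 of 7 and fell in 1, Krt15, while suprabasal markers fell in 5 of 7 and rose in 1, Krt6a. All 7 skeletal muscle markers fell, from sums of 27150 to 29310 CPM to sums of 7185 to 9685 CPM, and 4 of 5 smooth muscle markers fell. Levels are relative to each library's TMM-scaled size. A smaller muscle part can raise the levels of other transcripts as far as this scaling does not offset it. The part of the smaller muscle content in the rises of the cathepsins was not tested.

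**Figure D5:**
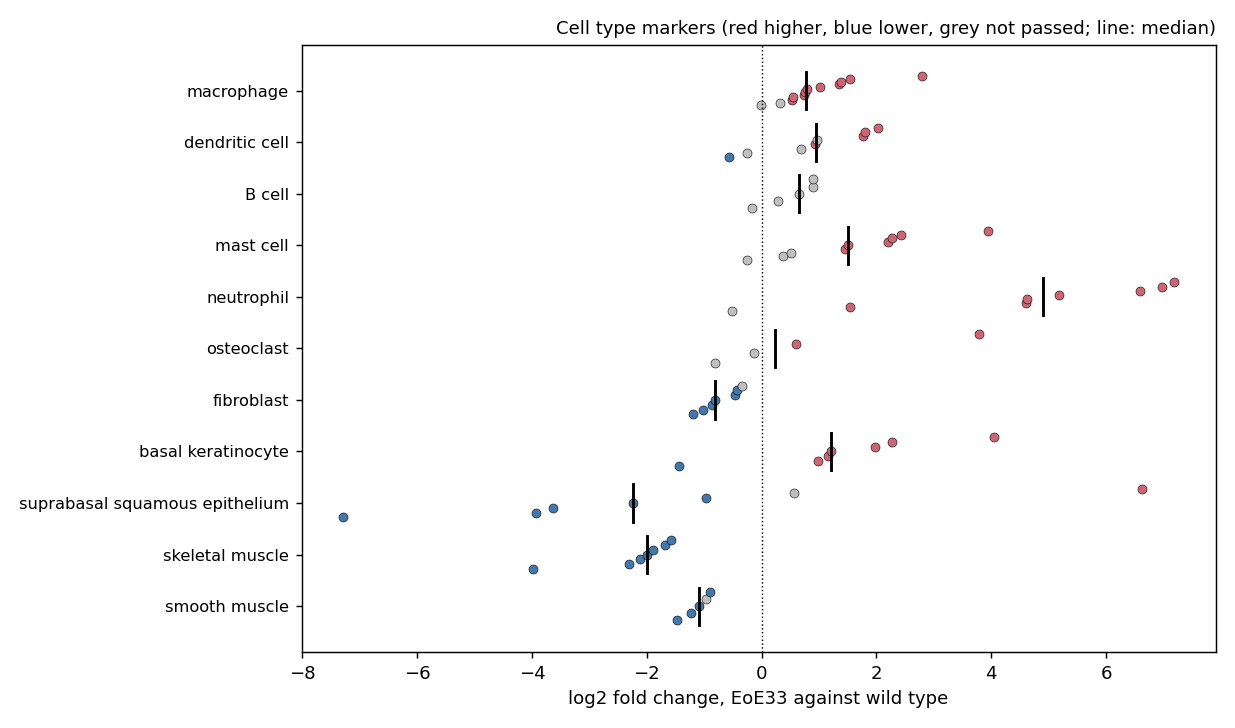
Log2 fold change of each tested marker gene (points), EoE33 against wild type, by cell type, with the median as a line; red rose, blue fell, grey did not pass. Macrophage, mast cell and neutrophil markers lie mostly to the right of 0, and fibroblast, skeletal muscle and smooth muscle markers to the left.

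The libraries held 17.73 to 24.07 times 1e6 counts, and 8 of the 10 cathepsins had at least 100 counts in every library. Wild type replicate 3 held airway transcripts and replicate 1 liver transcripts, and without both 7 cathepsins rose. Reads of 150 bases would be shared with other genes in 13.6% of windows of the longest Ctsb transcript (Fdft1), 33.4% for Ctsd (Gm49369, with 3 counts over all libraries) and 24% for Ctsl (Gm47123 and Gm49230, not analysed here), and in none for the other 7.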

How the data were processed

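The authors deposited raw counts per gene for polyA-selected, paired-end RNA libraries, per the labels' protocols. Trimmomatic 0.36, STAR 2.5.2b, featureCounts, Subread 1.5.2 and GRCm38 appear, with no roles, in the submitters' processing notes. The sources used here give neither annotation release, nor strand use, nor the handling of multiply matching reads. Columns were assigned to mice by the spreadsheet column letter in each sample's description. GENCODE M21 gave symbols and coordinates for 49056 of 49315 identifiers, and upstream sequence came from RefSeq (GRCm38.p6).

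Genes passing edgeR's filterByExpr (16760) were scaled by TMM and tested with edgeR 4.0.16 in R 4.3.3 (glmQLFit with robust = TRUE, glmQLFTest), with genotype as the only term. A gene that passed this filter only through its EoE33 libraries could not be called lower. Ctse, Ctsg, Gzmb, Mcpt2, Ly6g, Retnlg, Mmp8, Ngp, Ms4a2, Tpsab1, Stfa2, Atp6v0d2 and Ocstamp are among such genes. P-values were adjusted over all tested genes by Benjamini-Hochberg, with a threshold of 0.05. CPM use TMM-scaled library sizes. Standard errors (SE) come from the quasi-likelihood F statistic. Levels per kb use merged exon length. Libraries of 1 group all differed by more than counting error (chi-square over its degrees of freedom at least 10.4). A floor of 3 counts corresponded to 0.127 to 0.175 CPM in single libraries, and floors and count intervals cover counting error only.

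The members and lists were chosen with earlier results of these data known. All members are named, with up to 3 genes of smallest p from each other list of the pathway, opposing members where 3 or fewer, and markers that were highest or at 0; 1 gene that this rule names is not reported here. Other genes, among them Cd74, Cd68, Csf1r, Ms4a7, Zbtb46, Krt15, Dcn, Fdft1, Ltf, Mpo, Elane and Prtn3, were chosen after their values were seen. The alternatives were scaling by upper quartile, by DESeq2 size factors or by library size with and without Chil4, DESeq2 1.42.0, limma-voom (limma 3.58.1), robust = FALSE, other filters and thresholds, a replicate block, longest transcript length, and leaving out libraries.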

Additional observations from a re-analysis of the deposited data

Results flagged for a closer look

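No cathepsin had a library that stood apart from the other 3 of its group by the gap to its nearest neighbour, tested for 4 libraries against Dixon's 95% critical value. Among the summed marker levels, libraries stood apart in 6 of the 52 sets checked, cathepsins included, where chance gives about 1 in 20. In wild type, replicate 3 stood apart in neutrophil markers, at 183 CPM against 15.8 to 18.4 in the other libraries. Of these 183 CPM, Ltf alone made up 167 CPM. The same library stood apart in airway and lung markers, at 1075 CPM against 6.67 to 7.54. Wild type replicate 1 stood apart in liver markers, at 150.9 CPM against 4.49 to 11.5. In EoE33, osteoclast markers reached 102.8 CPM in replicate 2 against 66.1 to 69.6, and skeletal muscle markers 9685 CPM in replicate 4 against 7185 to 7580. Liver markers were at 4.09 CPM in EoE33 replicate 3 against 0.643 to 1.15.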

How the results depend on the processing

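The count of 8 cathepsins that rose was the same with every other scaling, test and filter, with the stricter threshold of 0.01 and without any single library (8 to 8). It was 7 without wild type replicates 1 and 3 together, where Ctse was lost, and 6 with a log2 fold change of at least 1. The count that fell was 0, and became 1, through Ctsk, with upper-quartile scaling and with library size only, and ranged from 0 to 1 when single libraries were left out. Ctsk had a log2 fold change between −0.38 and −0.13 over 19 alternatives, with adjusted p from 0.0188 to 0.423. Ctsd ranged from −0.021 to 0.18 when single libraries were left out: it was reversed, to −0.021, without EoE33 replicate 1 and was positive in the other 18. The 7 rises other than Ctse passed in all 19. Library size without Chil4 moved the median log2 fold change of all genes from −0.01 to 0.09, and Ctsd was then at 0.17 and Ctsk at −0.20. With the replicate block 8 cathepsins rose and none fell. Deviations from group means of libraries with the same number correlated between −0.13 and 0.12, and 1 of 4 wild type libraries correlated best with its own number. The labels name no pairing, and correlations over so few libraries cannot exclude one. With longest transcript length Ctsc came before Ctsh in wild type and before Ctsl in EoE33, and the Ctsd share was 60.9% and 44.0%. Depth limits Ctse and Ctsg, with 27 and 16 wild type counts in all.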

Other observations

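Marker lists of neighbouring tissues held few tested genes. Of the gastric mucosa list only Muc6 was tested, and it rose from 0.928 to 2.47 CPM. Of 6 erythroid markers 5 were tested and none passed, with sums of 91.3 to 405 CPM in wild type and 105 to 648.5 CPM in EoE33. Of the thyroid list only Tshr was tested and did not pass. Both tested airway markers and both tested liver markers were lower in EoE33, with the wild type sums set by the libraries named above. Of the osteoclast list 2 of 4 tested genes rose, Ocstamp from 0.0637 to 0.968 CPM and Acp5, which macrophages also express, from 45.1 to 68.8 CPM, while Calcr and Tnfrsf11a did not pass.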
